A study of Homo sapiens with 12 samples.

Results

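The comparison described here sets HTRA2 knockdown directly against 5-OH-TMT in human NCM460 cells, a line derived from normal colonic epithelium, with TNF-α present in both arms. Its members are 6 of the 12 RNA-seq libraries of the series: the 3 libraries labelled Bufotenidine, in which wild-type cells received TNF-α and 5-OH-TMT, and the 3 libraries in which HTRA2 was knocked down and the cells received TNF-α. They were chosen by their labels, and the libraries of cells in medium and of cells given TNF-α alone entered none of the tests reported here. A fit to all 12 libraries, tried as an alternative, is the exception. The question is how far the loss of HTRA2 transcript resembles, gene by gene, the compound that is said to act through HTRA2. Expression was compared for 11235 of the 58735 genes of the deposited table, those with a mean of at least 1 FPKM (fragments scaled to gene length and to the size of the library) over the 6 libraries.

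5-OH-TMT, 5-hydroxy-N,N,N-trimethyltryptamine, is a quaternary ammonium tryptamine, and the labels call it Bufotenidine. HTRA2 is a serine protease of the mitochondrial intermembrane space that degrades misfolded proteins there and, once released into the cytosol, cleaves inhibitor of apoptosis proteins (IAPs). TNF-α binds its receptor on epithelial cells and activates NF-κB, whose targets include chemokines, acute-phase proteins and its own inhibitors. Type I and type III interferons act through a complex that holds STAT2 and IRF9 and binds the interferon-stimulated response element (ISRE) and turns on genes of antiviral defence and antigen presentation. Double-stranded RNA is a classical trigger of that program.

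Several features of the design limit what the 2 arms can be compared for. The labels name no control siRNA or transfection for the 5-OH-TMT libraries, so the loss of HTRA2 and the transfection that produced it cannot be told apart. They also do not say whether the 3 knockdown libraries carry 1 siRNA or 3, nor give a dose or time for TNF-α and the compound. Nothing in the labels says that replicates came from separate cultures, and p-values then measure only the spread between these libraries, which may be technical.

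Reads on genes, recovered from the FPKM, numbered 35563523 to 36407127 in the 5-OH-TMT libraries and 34419837 to 37624399 in the knockdown. Knockdown replicate 2 stood apart from the other 2 of its group. Its share of reads from the mitochondrial genome was 2.95%. That share was 4.21% and 4.50% in knockdown replicates 1 and 3 and 4.02% to 4.13% in the 5-OH-TMT libraries. Some results are therefore also given without knockdown replicate 2. The labelled cell type was met in part by the markers. EPCAM, CDH1, KRT8, KRT18 and KRT19, 5 of 12 markers of colon epithelium, had a mean of at least 1 FPKM, whereas KRT20, CDX1, CDX2, VIL1, PHGR1 and CDH17 were under 0.1 FPKM in each of the 6 libraries. The 6 markers of stratified or basal epithelium, KRT5, KRT14, KRT13, KRT17, TP63 and DSG3, each had a mean of at least 1 FPKM. Of the leukocyte markers 0 of 7 did, with CD3E at 0 in each library.

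HTRA2 itself (ENSG00000115317; chromosome 2, 74529377 to 74533348, plus strand, GRCh38) was at 15.4, 15.5 and 14.8 FPKM in the 5-OH-TMT libraries and at 7.44, 7.18 and 7.22 FPKM in the knockdown. The groups did not overlap, and the mean of the knockdown was 0.477 times that with 5-OH-TMT (log2 difference -1.06, SE 0.07, adjusted p 0.00012 by limma with Benjamini-Hochberg adjustment over the 11235 genes). An exact two-sided permutation test of 3 libraries against 3 gave p = 0.1, the smallest it allows. In cells given TNF-α alone HTRA2 stood at 15.4, 14.0 and 14.2 FPKM, side by side with the 5-OH-TMT values. The compound arm therefore still held the transcript that the knockdown lowered. AUP1 and LOXL3 lie on the opposite strand and share 563 and 935 bases with HTRA2, and the strand setting of the counting is not given in the sources used here. AUP1 was at 70.6, 68.9 and 66.7 FPKM with 5-OH-TMT and 63.0, 46.1 and 67.3 FPKM in the knockdown, which overlap. LOXL3 was at 0.984, 1.34 and 1.05 FPKM with 5-OH-TMT and lower in each knockdown library, at 0.718, 0.470 and 0.906 FPKM. The part of shared reads in these values was not tested.

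Across the transcriptome, 1362 genes were higher and 1361 lower in the knockdown at an adjusted p under 0.05, which is 12.1% of the genes tested in each direction. The differences were mostly small: the median absolute log2 difference of the called genes was 0.452. The study called a gene changed at a fold of 2 or more and a p, not adjusted, no higher than 0.05, and by that rule 156 genes (1.39%) were higher and 56 (0.498%) lower. Most of the larger differences were in 1 direction. Protein-coding genes were 10052 of the 11235 tested, and they made up 133 of the 156 higher genes but 22 of the 56 lower ones. Without any filter on low values, 29572 genes were tested and the calls at an adjusted p under 0.05 numbered 771 higher (2.61%) and 520 lower (1.76%). Leaving out 1 library moved the counts of the filtered fit by over 1.5 times in 4 cases: to 662 higher and 449 lower without 5-OH-TMT replicate 1, 635 and 416 without replicate 2, 710 lower without replicate 3, and 880 and 751 without knockdown replicate 1. Counts of single lists without 1 library, given below, stand beside these counts over all genes. After rescaling each library to a fixed sum of FPKM the split was 1682 higher and 953 lower, and the median of all genes moved from -0.01 to 0.07 on the log2 scale.

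**Figure D1:**
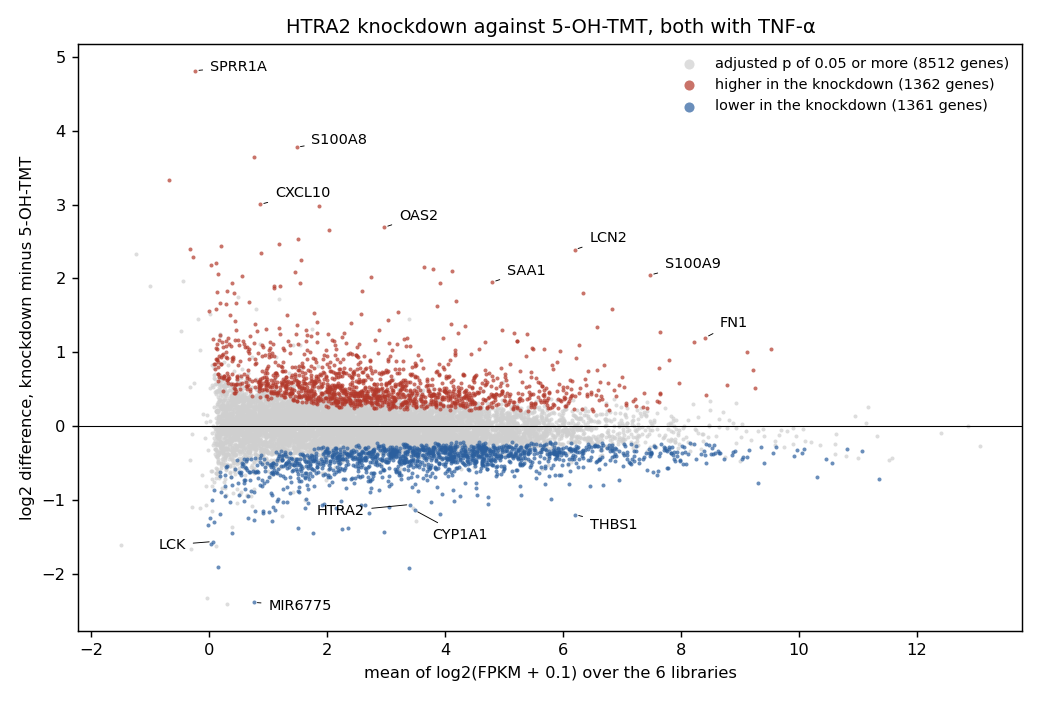
Mean level of each of the 11235 genes (x axis, mean of log2(FPKM + 0.1) over the 6 libraries) against its log2 difference, knockdown minus 5-OH-TMT (y axis). Red points are the 1362 genes higher and blue points the 1361 genes lower in the knockdown at an adjusted p under 0.05; the differences above 2 on the log2 scale are interferon, chemokine, antimicrobial and cornified-envelope genes among the labelled points, and HTRA2 lies at -1.06.

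Interferon-stimulated genes were higher in the knockdown than with 5-OH-TMT almost throughout the list. Of 56 genes on the list 50 were tested, 45 passed the adjusted test as higher, against 12.1% of all genes, and 0 as lower. The median log2 difference of the 50 was 0.95, against -0.01 over all genes tested, and in 46 each knockdown library lay above each 5-OH-TMT library (22.4% of all genes did so). Under the fold rule 23 of them were higher, which is 14.7% of the 156 higher genes and 41.1% of the list. OAS2, OAS1 and OAS3, which make the 2'-5' oligoadenylates that activate RNase L on sensing double-stranded RNA, were all called. OAS2 was at 2.71, 3.09 and 3.18 FPKM with 5-OH-TMT and 21.1, 18.6 and 19.98 FPKM in the knockdown (log2 difference 2.69, SE 0.09, adjusted p 4.9e-06). RSAD2, which makes the antiviral nucleotide ddhCTP from CTP, was at 1.72, 1.37 and 1.51 FPKM with 5-OH-TMT and 10.3, 10.1 and 10.2 FPKM in the knockdown (2.66, SE 0.10, adjusted p 6e-06). In both genes the 3 knockdown libraries lay close together and far above the 3 others. CMPK2, a mitochondrial nucleotide kinase encoded next to RSAD2, followed at 2.54 on the log2 scale, from 1.23, 0.922 and 1.09 to 7.11, 5.99 and 7.13 FPKM.

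Other effectors of the list were higher in the knockdown as well. MX1, a dynamin-like GTPase that traps viral nucleocapsids, was at 3.07, 3.00 and 3.72 FPKM with 5-OH-TMT and 13.6, 11.7 and 15.2 FPKM in the knockdown (log2 difference 2.01, adjusted p 0.0001). IFI6, an antiviral membrane protein, was at 42.5, 45.6 and 42.6 FPKM and 141, 142 and 174 FPKM in the same order (3.495 times the level). ISG15, the ubiquitin-like modifier, was already at 388, 345 and 358 FPKM with 5-OH-TMT and reached 534, 519 and 554 FPKM in the knockdown (log2 difference 0.56, adjusted p 0.0019). Transcription factors of the list were higher too: STAT2 differed by 0.63 and IRF7 by 0.98 on the log2 scale, each with an adjusted p of at most 0.0021. TRIM25 (0.13), SOCS1 (0.47), DHX58 (0.47), IFITM1 (0.60) and IFITM3 (0.32) were the 5 members tested that did not pass; they were named after their values were seen.

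The ligands of the pathway were near the limit of detection. These genes were looked at after the values were seen. IFNL1, a type III interferon of epithelia, was at 0.531, 0.427 and 0.649 FPKM with 5-OH-TMT and 2.43, 1.55 and 1.505 FPKM in the knockdown (log2 difference 1.58, SE 0.23, adjusted p 0.0029), or 13 to 20 reads against 47 to 75. It passed the level filter only through the knockdown. IFNL3 had 0 reads in each 5-OH-TMT library and 14, 8 and 17 in the knockdown, which is at least 4.25-fold higher against a floor of 3 reads per library. IFNB1, the type I interferon of most non-immune cells, had 2, 0 and 1 reads with 5-OH-TMT and 0 in each knockdown library, so no fold is given.

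Promoter sequence is shown for RSAD2 and ISG15 because the interferon list was named for a regulator with a known recognition sequence. CXCL10, of the NF-κB list described below, is shown beside them and is not counted in the shares given here. RefSeq promoter windows (GRCh38.p14), 250 bases before to 50 bases after each listed start site, were matched for 37 of the 50 tested interferon-stimulated genes. The ISRE letters searched were GAAA, any 2 bases, then GAAA, on both strands, and they were found in a window of 26 of the 37 (70.3%), against 4.38% of the 27305 genes of the promoter table. For antigen presentation and GBP genes the share was 14 of 18 (77.8%). A match describes the letters and is not shown to be a bound site, and no test was made. In the windows below, capitals mark the ISRE letters on either strand; in ISG15 a pair of matches overlaps.
RSAD2 (chr2:6877527-6877826, plus strand, the second of 2 listed start sites): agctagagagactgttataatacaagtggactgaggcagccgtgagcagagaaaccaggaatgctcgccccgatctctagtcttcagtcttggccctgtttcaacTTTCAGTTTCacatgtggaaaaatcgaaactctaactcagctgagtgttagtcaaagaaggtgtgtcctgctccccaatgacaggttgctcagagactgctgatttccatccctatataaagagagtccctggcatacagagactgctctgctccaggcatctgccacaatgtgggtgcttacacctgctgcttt
ISG15 (chr1:1013247-1013546, plus strand): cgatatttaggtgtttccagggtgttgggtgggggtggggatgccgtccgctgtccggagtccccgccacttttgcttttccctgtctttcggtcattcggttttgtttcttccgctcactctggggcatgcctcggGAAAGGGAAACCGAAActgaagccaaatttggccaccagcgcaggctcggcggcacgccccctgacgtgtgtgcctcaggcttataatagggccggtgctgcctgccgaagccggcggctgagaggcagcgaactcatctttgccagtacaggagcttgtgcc
CXCL10 (chr4:76023448-76023747, minus strand): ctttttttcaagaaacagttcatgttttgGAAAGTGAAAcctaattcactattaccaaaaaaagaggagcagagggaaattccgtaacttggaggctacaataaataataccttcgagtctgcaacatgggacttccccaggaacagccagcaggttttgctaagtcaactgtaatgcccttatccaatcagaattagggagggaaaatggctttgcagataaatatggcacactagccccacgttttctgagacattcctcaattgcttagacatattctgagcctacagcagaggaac

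Genes of antigen presentation and the guanylate-binding proteins (GBPs), GTPases that attack the membranes of intracellular pathogens, were also higher in the knockdown. Of 22 tested, 16 passed as higher and 0 as lower, against 12.1% of all genes in each direction, with a median log2 difference of 0.50. The 4 tested GBPs all passed. GBP4 was at 0.798, 0.698 and 1.14 FPKM with 5-OH-TMT and 5.81, 5.24 and 4.71 FPKM in the knockdown (log2 difference 2.47, SE 0.17, adjusted p 0.00012), and GBP2 at 1.44, 1.08 and 1.71 and 5.89, 6.23 and 4.81 FPKM. Among the class I molecules, which present peptides to T cells, HLA-B was at 42.9, 38.1 and 49.7 FPKM and 89.2, 84.0 and 89.4 FPKM in the same order (1.01, adjusted p 0.0005). B2M, the invariant chain of class I, moved from 104, 99.1 and 104 to 155, 168 and 163 FPKM (0.66, adjusted p 0.0006). The summed level of the 7 leukocyte markers was 0.274 to 0.332 FPKM with 5-OH-TMT and 0.747 to 1.04 FPKM in the knockdown, with CD3E at 0 throughout and PTPRC, LYZ and CD68 under 0.1 FPKM in each library. HLA-DRA, of MHC class II, was at 0, 0.0440 and 0 FPKM with 5-OH-TMT and 0.390, 0.477 and 0.300 FPKM in the knockdown, and CD14 at 0.301, 0.179 and 0.295 FPKM and 0.294, 0.309 and 0.727 FPKM; their part in the result was not tested. In bulk RNA fewer cells of a type and less RNA per cell cannot be told apart.

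**Figure D2:**
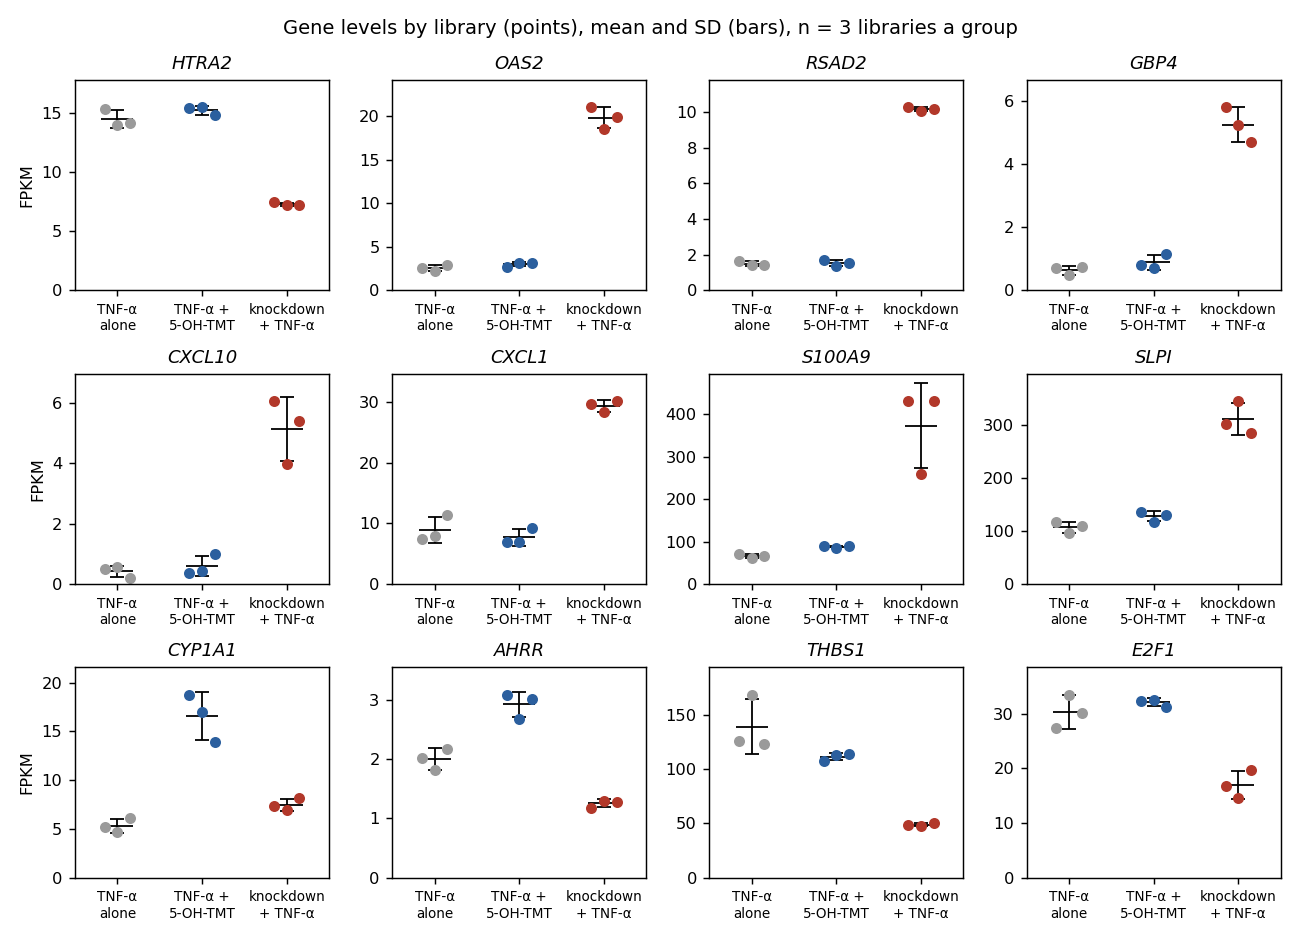
FPKM of 12 genes in each library (points), with the mean and SD of 3 libraries a group (bars); y axes start at 0. HTRA2 stands at 14.8 to 15.5 FPKM with 5-OH-TMT and at 7.18 to 7.44 in the knockdown, the interferon, chemokine and antimicrobial genes in the upper 2 rows are higher in each knockdown library, and CYP1A1, AHRR, THBS1 and E2F1 are lower; the grey libraries with TNF-α alone were not used in the tests of these genes.

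NF-κB target genes were higher in the knockdown than with 5-OH-TMT in most effectors and chemokines of the list. Of 40 genes tested, 24 passed as higher and 1 as lower, against 12.1% of all genes in each direction, with a median log2 difference of 0.86. Among effectors, which include acute-phase proteins, 9 of 10 passed as higher. Among chemokines and cytokines 10 of 15 passed as higher, and among regulators, the subunits and inhibitors of NF-κB, 5 of 15. SAA1, an acute-phase apolipoprotein, was at 11.4, 14.0 and 17.5 FPKM with 5-OH-TMT and 53.5, 53.3 and 57.6 FPKM in the knockdown (log2 difference 1.95, SE 0.14, adjusted p 0.00012). LCN2, which sequesters bacterial siderophores, was at 32.0, 28.3 and 36.2 FPKM and 199.6, 118 and 202 FPKM in the same order; knockdown replicate 2 was the lowest of its group and still above each 5-OH-TMT library (2.39, adjusted p 0.00023).

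The neutrophil chemokines CXCL1 and CXCL8 differed by 1.94 and 2.10 on the log2 scale. CXCL1 was at 6.84, 6.86 and 9.29 FPKM with 5-OH-TMT and 29.6, 28.3 and 30.2 FPKM in the knockdown (adjusted p 0.0001). CXCL8 was at 7.03, 7.66 and 10.7 FPKM and 33.9, 46.8 and 29.6 FPKM in the same order (adjusted p 0.0004). CXCL10, a T cell chemokine driven by interferon as well as NF-κB, had the highest difference of the list at 3.00, from 0.363, 0.431 and 0.993 to 6.06, 3.98 and 5.39 FPKM. TNF transcript was at 0.933, 0.655 and 1.39 FPKM with 5-OH-TMT and 3.92, 1.77 and 1.88 FPKM in the knockdown, with knockdown replicate 1 highest (log2 difference 1.23, adjusted p 0.029). CSF2, the growth factor GM-CSF, was the called member in the opposite direction, at 3.21, 3.22 and 5.09 FPKM and 2.57, 2.54 and 2.09 FPKM (-0.63, adjusted p 0.037). The TNF call was lost without 5-OH-TMT replicate 1 or 2 or knockdown replicate 1 (adjusted p 0.07 to 0.097), and the CSF2 call without any 1 library but knockdown replicate 2 (adjusted p 0.054 to 0.084), without which the list had 2 lower calls.

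Feedback inhibitors of NF-κB were among the called regulators. TNFAIP3, the A20 deubiquitinase that ends NF-κB signaling, was at 26.5, 24.1 and 40.4 FPKM with 5-OH-TMT and 59.9, 56.2 and 55.9 FPKM in the knockdown (0.95, adjusted p 0.0061). NFKBIA, the inhibitor IκBα, was at 145, 140.4 and 165 FPKM and 184, 171 and 185 FPKM (0.27, adjusted p 0.046). In these genes 5-OH-TMT replicate 3 was the highest of its group. Over the whole list the members in this library lay, by their median, 0.10 below their means over the 6 libraries on the log2 scale. That median lay 0.48 and 0.59 below in 5-OH-TMT replicates 1 and 2 and 0.24 to 0.46 above in the knockdown. Without 5-OH-TMT replicate 3 the list had 26 higher and 0 lower calls. NFKBIA lost its call without 5-OH-TMT replicate 1 or 2 or knockdown replicate 1 or 3, with an adjusted p of 0.085 to 0.17. The κB letters searched were GGGA, any base, then TTTCC, on both strands, and they were found in promoter windows of 12 of the 31 tested members matched (38.7%), against 0.678% of the genes of the promoter table. CXCL10, shown above, was not among the 12. Both genes below carry 1 match, in capitals. The list was named for this factor and no test was made.
CXCL1 (chr4:73869143-73869442, plus strand): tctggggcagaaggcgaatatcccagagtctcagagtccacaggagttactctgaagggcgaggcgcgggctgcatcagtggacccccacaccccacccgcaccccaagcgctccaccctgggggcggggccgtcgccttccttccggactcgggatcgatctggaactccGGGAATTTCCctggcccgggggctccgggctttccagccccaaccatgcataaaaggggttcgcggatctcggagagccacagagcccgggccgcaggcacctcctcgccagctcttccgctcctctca
TNFAIP3 (chr6:137867009-137867308, plus strand): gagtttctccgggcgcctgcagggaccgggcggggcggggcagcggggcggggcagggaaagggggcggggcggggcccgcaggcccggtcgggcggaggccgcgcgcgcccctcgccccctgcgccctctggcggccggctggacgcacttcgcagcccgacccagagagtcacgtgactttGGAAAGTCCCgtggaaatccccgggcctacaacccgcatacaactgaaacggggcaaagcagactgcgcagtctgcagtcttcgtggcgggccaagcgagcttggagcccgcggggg

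Epithelial antimicrobial genes were higher in the knockdown over a small number of genes. Of 28, 8 were tested and 7 passed as higher, against 12.1% of all genes, with a median log2 difference of 1.66. With no filter on low values 23 were tested, 9 passed as higher and the median was 0.66; S100A8 passed the filter through its level in the knockdown. S100A8 and S100A9 form calprotectin, a metal-binding complex that starves microbes of zinc and manganese. S100A8 was at 0.311, 0.895 and 0.967 FPKM with 5-OH-TMT and 11.1, 9.21 and 10.6 FPKM in the knockdown (log2 difference 3.78, SE 0.32, adjusted p 0.00027). S100A9 was at 88.7, 85.9 and 88.8 FPKM and 430.4, 258 and 431 FPKM in the same order (2.05, adjusted p 0.00033). In neither gene did the groups overlap. The protease inhibitors PI3 (elafin) and SLPI also differed: PI3 was at 1.48, 0.780 and 1.45 and 11.1, 10.04 and 9.22 FPKM (2.98), and SLPI at 135, 118 and 131 and 302, 345 and 286 FPKM (1.28). DEFB1, a constitutive defensin, lay under the level filter at 0.595, 0.471 and 0.407 FPKM with 5-OH-TMT and 1.16, 1.16 and 0.861 FPKM in the knockdown, or 7 to 10 reads against 15 to 20 (adjusted p 0.063 in the fit without a filter).

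C-type lectin receptor signaling, the pathway of Dectin-1, had calls in both directions. Dectin-1 is a receptor for fungal β-glucan that signals through SYK and the CARD9, BCL10 and MALT1 complex. Of 66 genes tested, 18 passed as higher and 5 as lower, against 12.1% of all genes in each direction, with a median log2 difference of 0.08. The transcription factors and outputs, which overlap with the NF-κB and interferon lists, held 9 of the 18 higher calls; 12 genes of the list are on the NF-κB list and 4 on the interferon list. CLEC7A, which encodes Dectin-1, lay under the level filter at 0.624, 0.457 and 0.537 FPKM with 5-OH-TMT and 1.26, 1.25 and 1.13 FPKM in the knockdown (1.04, SE 0.18, adjusted p 0.031 in the fit without a filter, over 29572 genes). The groups did not overlap; the reads were 68 to 92 and 172 to 190 per library. Leaving out any 1 of the 6 libraries raised the adjusted p of CLEC7A to 0.07 to 0.12. With TNF-α alone CLEC7A stood at 0.403, 0.413 and 0.467 FPKM. CARD9 was at 0.0721, 0.0672 and 0.0207 FPKM with 5-OH-TMT and 0.0372, 0.0497 and 0.0287 FPKM in the knockdown, which overlap and rest on 5 to 17 reads. SYK was at 0.104, 0.189 and 0.219 FPKM and 0.192, 0.266 and 0.195 FPKM, which overlap as well. BCL10, the adaptor of CARD9, was higher in the knockdown by 0.55 on the log2 scale, and MAPK12, a p38 kinase, was lower by 0.53 (adjusted p 0.0027). The list had 9 higher and 2 lower calls without 5-OH-TMT replicate 1 and 8 and 1 without replicate 2, with 2 lower without replicate 3 and 3 lower without knockdown replicate 1; with no filter there were 12 and 3 of 91.

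Among 24 tight junction and barrier genes tested, 11 passed as higher in the knockdown and 0 as lower, against 12.1% of all genes in each direction, with a median of 0.25. CLDN1, a barrier-forming claudin, was at 64.4, 60.2 and 74.2 FPKM with 5-OH-TMT and 112, 113 and 107 FPKM in the knockdown (0.74, SE 0.09, adjusted p 0.0012). OCLN, which encodes occludin, was at 3.31, 3.94 and 4.23 FPKM and 4.99, 4.84 and 4.80 FPKM (0.35, adjusted p 0.043). TJP1, which encodes the scaffold ZO-1, was at 11.7, 11.7 and 13.6 FPKM and 12.1, 13.1 and 11.9 FPKM; the groups overlapped, and the 95% interval of the log2 difference ran from -0.19 to 0.21. CDH1, the epithelial cadherin, differed by 0.42, and PARD6B, a polarity protein, by 0.91 on the log2 scale. The membrane mucin MUC20 was at 3.08, 2.66 and 2.49 FPKM with 5-OH-TMT and 7.58, 4.71 and 6.93 FPKM in the knockdown (1.17). MUC2, the gel-forming mucin of goblet cells, lay at 0.0449, 0.0111 and 0.0329 FPKM and 0.0481, 0.0569 and 0.0671 FPKM, or 5 to 20 and 22 to 31 reads; each knockdown library lay above each 5-OH-TMT library, and the gene did not pass in the fit without a filter (adjusted p 0.49). The count of the list fell to 4 higher calls without 5-OH-TMT replicate 1 and to 4 without 5-OH-TMT replicate 2, to 7 without replicate 3, and to 5 without knockdown replicate 1; with no filter on low values 6 of 35 passed as higher. OCLN lost its call without 5-OH-TMT replicate 1 or 2 or knockdown replicate 1 or 3 (adjusted p 0.069 to 0.16).

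Further genes of inflammatory bowel disease and cell survival fell on both sides of the test. NOD2, a sensor of bacterial muramyl dipeptide, lay under the level filter at 0.0951, 0.0778 and 0.0728 FPKM with 5-OH-TMT and 0.444, 0.319 and 0.303 FPKM in the knockdown (1.31, adjusted p 0.046 in the fit without a filter, and 0.064 to 0.15 without any 1 of the 6 libraries). XBP1, a transcription factor of the unfolded protein response, was at 66.9, 65.4 and 68.7 FPKM and 63.9, 64.2 and 68.6 FPKM, with an interval of the log2 difference from -0.18 to 0.12. ATG16L1, an autophagy factor, was at 8.47, 8.14 and 8.62 FPKM and 8.56, 7.98 and 8.56 FPKM, with an interval from -0.18 to 0.16. Both pairs of groups overlapped. BCL2 was at 0.0284 to 0.0507 FPKM with 5-OH-TMT and 0.0283 to 0.0863 FPKM in the knockdown, which is under the level filter.

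Targets of the aryl hydrocarbon receptor (AHR), a ligand-activated factor that binds indoles and other planar compounds, were lower in the knockdown in 2 genes. CYP1A1, the monooxygenase most commonly used as a readout of AHR, was at 18.8, 17.0 and 14.0 FPKM with 5-OH-TMT and 7.34, 6.91 and 8.15 FPKM in the knockdown (log2 difference -1.13, SE 0.12, adjusted p 0.00065). AHRR, the repressor that AHR induces, was at 3.08, 2.67 and 3.00 FPKM and 1.18, 1.30 and 1.28 FPKM in the same order (-1.16, adjusted p 0.00063). Each 5-OH-TMT library lay above each knockdown library in both genes. With TNF-α alone CYP1A1 was at 5.17, 4.64 and 6.09 FPKM and AHRR at 2.02, 1.81 and 2.17 FPKM, and in medium CYP1A1 was at 13.5, 15.4 and 14.0 FPKM. AHR itself was higher in the knockdown, at 5.26, 7.31 and 5.55 FPKM against 3.14, 3.39 and 3.85 FPKM (0.78, adjusted p 0.006). The other targets tested did not pass: CYP1B1 differed by -0.15, TIPARP by -0.12 and NQO1 by -0.20, NQO1 passing at an adjusted p of 0.05 without knockdown replicate 2. Of 7 genes of the list tested, 1 was called higher and 2 lower, against 12.1% of all genes in each direction.

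DNA replication genes were lower and mitotic genes higher in the knockdown. Of 40 replication and G1/S genes tested, 24 passed as lower and 0 as higher, against 12.1% of all genes in each direction, with a median log2 difference of -0.40. Of 39 genes of mitosis and G2/M, 20 passed as higher and 0 as lower, with a median of 0.32. E2F1, which drives entry into S phase, was at 32.4, 32.5 and 31.2 FPKM with 5-OH-TMT and 16.7, 14.6 and 19.6 FPKM in the knockdown (-0.92, SE 0.11, adjusted p 0.001). MCM6, a subunit of the replicative helicase, was at 20.4, 22.3 and 19.9 FPKM and 12.5, 13.6 and 13.0 FPKM (-0.67), and UHRF1, which guides maintenance methylation at forks, at 25.8, 28.0 and 25.2 FPKM and 14.5, 15.8 and 15.9 FPKM (-0.77). In these genes no 5-OH-TMT library lay under a knockdown library. On the mitotic side MKI67, the proliferation marker Ki-67, was at 18.9, 18.8 and 20.4 FPKM with 5-OH-TMT and 26.8, 26.2 and 25.2 FPKM in the knockdown (0.43, adjusted p 0.0047). TTK, a spindle checkpoint kinase, differed by 0.62 and CCNA2, cyclin A2, by 0.40 on the log2 scale. The mitotic count was 5 without 5-OH-TMT replicate 1, 9 without replicate 2 and 11 without replicate 3; the replication count was 15, 15 and 19. With no filter on low values 7 of 40 mitotic genes passed as higher and 16 of 41 replication genes as lower.

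Genes of the integrated stress response, through which ATF4 raises amino acid supply, were lower in the knockdown on the side of the targets. Of 16 targets tested 10 passed as lower and 0 as higher, against 12.1% of all genes in each direction. Of 6 transcription factors 1 passed, ATF3, as higher. The median log2 difference of the 22 genes tested was -0.30, and -0.17 without knockdown replicate 2. CHAC1, which degrades glutathione, was at 8.48, 9.05 and 9.16 FPKM with 5-OH-TMT and 4.61, 3.26 and 4.92 FPKM in the knockdown (-1.07, SE 0.14, adjusted p 0.0019). The amino acid transporters SLC7A5 and SLC3A2, which pair at the membrane, were lower by 0.77 and 0.57 on the log2 scale; SLC7A5 was at 849, 813 and 809 FPKM and 508, 403 and 548 FPKM. DDIT4, an inhibitor of mTORC1, was at 272, 251 and 267 FPKM and 178, 177 and 178 FPKM (-0.57). ATF3 was at 7.58, 7.62 and 7.84 FPKM and 11.5, 10.9 and 11.7 FPKM (0.56, adjusted p 0.0016). The mitochondrial chaperones followed: of 8 tested, 4 passed as lower and 0 as higher, TRAP1 by 0.36 and DNAJA3 by 0.38 among them, whereas of 17 ER chaperones 4 passed as higher and 2 as lower. Of the 4 higher and 6 lower chaperone calls, 0 and 2 were left without 5-OH-TMT replicate 1 and 0 and 1 without replicate 2. Without replicate 3 or without knockdown replicate 1, 1 higher call was left. With no filter the calls were 0 and 3. Without knockdown replicate 2 the lower chaperone calls numbered 9. TRAP1 lost its call without 5-OH-TMT replicate 1 or 2 and DNAJA3 without replicate 2 (adjusted p 0.052 to 0.062).

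Within the mitochondrial protein quality control to which HTRA2 belongs, the share called was near that of all genes. Of 14 other mitochondrial proteases and partners tested, 2 passed as lower (14.3%, against 12.1% of all genes) and 0 as higher: CLPP, the matrix peptidase, at 39.9, 39.3 and 36.6 FPKM with 5-OH-TMT and 30.7, 25.6 and 31.8 FPKM in the knockdown (-0.40, adjusted p 0.019), and LONP1, the Lon protease, at -0.26. Among the IAPs and their antagonists, BIRC3 was higher, at 8.27, 11.3 and 7.62 FPKM against 3.92, 4.30 and 6.27 FPKM (0.90, adjusted p 0.013); it is also an NF-κB target. BIRC6 was higher by 0.38, and XIAP was at 4.05, 4.14 and 4.09 FPKM and 4.49, 5.49 and 4.20 FPKM without passing (adjusted p 0.23). In the BCL2 family 4 of 14 passed as higher (28.6%) and 1 as lower (7.1%), against 12.1% of all genes in each direction. BCL2A1, an anti-apoptotic NF-κB target, had the largest difference there, from 0.261, 0.569 and 0.562 to 2.85, 2.90 and 1.21 FPKM (2.06); MCL1 (0.52), BBC3 (0.68) and BCL2L11 (0.53) were higher and BAX was lower by 0.43. Several of these calls rested on single libraries: CLPP, LONP1, BIRC3, BIRC6, BBC3, BCL2L11 and BAX each lost theirs without 5-OH-TMT replicate 2 (adjusted p 0.051 to 0.14), and all of these but BIRC3 and BAX without replicate 1. With no filter the list of HTRA2 and its partners had 0 higher calls and 1 lower. LONP1 also lost it without 5-OH-TMT replicate 3, LONP1, BIRC6 and BBC3 without knockdown replicate 1, and BIRC6 without knockdown replicate 2. The BCL2 family had 2 higher calls without 5-OH-TMT replicate 1 or 2 and 2 lower calls without knockdown replicate 3.

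Nuclear genes of mitochondrial respiration and of both kinds of ribosome were slightly lower in the knockdown. The calls were 23 lower of 73 respiratory chain genes, 29 of 75 mitochondrial ribosomal proteins and 33 of 81 cytosolic ribosomal proteins, with 0 higher in each list, against 12.1% of all genes in each direction, and medians of -0.19, -0.18 and -0.22. ATP5MC1, which encodes a subunit of the rotor ring of ATP synthase, was at 59.7, 60.5 and 57.7 FPKM with 5-OH-TMT and 36.7, 33.5 and 39.1 FPKM in the knockdown (-0.70, adjusted p 0.00086). The 13 protein-coding transcripts of the mitochondrial genome gave 0 calls by limma at an adjusted p under 0.05; at an unadjusted p under 0.05 there were 2, voom on the recovered reads called 1 as lower, and quantile normalization gave 1 as higher. Their median difference was -0.24, and 0.03 without knockdown replicate 2, whose level of the list, as a median over members, lay 0.57 below the mean of the 6 libraries. These counts fell when a 5-OH-TMT library or knockdown replicate 1 was left out, as did the count over all genes. Without 5-OH-TMT replicate 1 the respiratory chain list had 2 lower calls, the mitochondrial ribosomal list 7 and the cytosolic ribosomal list 5, against 449 of all 11235 genes. Without 5-OH-TMT replicate 2 they had 2, 7 and 7, against 416. The medians were -0.19, -0.21 and -0.20 without replicate 1 and -0.19, -0.16 and -0.22 without replicate 2. With no filter on low values the lower calls were 6 of 76, 10 of 77 and 3 of 84, and with the fixed sum of FPKM they were 15, 20 and 26 with medians of -0.11, -0.10 and -0.14. Without replicate 3 the counts were 9, 16 and 18, and without knockdown replicate 1 they were 9, 12 and 15. Without knockdown replicate 2 they were 31, 29 and 47, against 1496 of all genes. Without knockdown replicate 3 they were 29, 26 and 37, against 1565. Without knockdown replicate 3, 2 of the mitochondrially encoded transcripts were called lower.

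Gene length and GC content moved with the comparison as a whole. Across 5 equal groups of genes by length, from the shortest, the median log2 difference was -0.119, -0.051, -0.01, 0.031 and 0.101, and across 5 equal groups by GC content, from the lowest, it was 0.183, 0.083, -0.019, -0.121 and -0.186. The shortest group held 163 higher and 414 lower calls and the longest 360 and 90. In the group with the lowest GC content 423 genes were called higher and 29 lower, and in the group with the highest 130 and 567. After the median of 20 length bins was subtracted in each library, 17 respiratory chain, 19 mitochondrial ribosomal and 29 cytosolic ribosomal genes were lower; after the same for GC content there were 23, 31 and 42. The interferon list had 44 and 47 higher calls under these 2 corrections, the NF-κB list 24 and 30, the replication list 21 and 21 lower calls and the mitotic list 21 and 20 higher calls. Other lists moved in either direction. The median of the integrated stress response went from -0.30 to -0.24 and -0.15. That of the siRNA machinery and RNA-binding sensors went from 0.35 to 0.22 and 0.16, with 1 lower call under GC bins. Higher calls went from 11 to 8 and 12 for tight junction and barrier genes. For keratins and cornified-envelope genes they went from 11 to 14 and 15. The part of length and GC content in single genes was not tested.

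**Figure D3:**
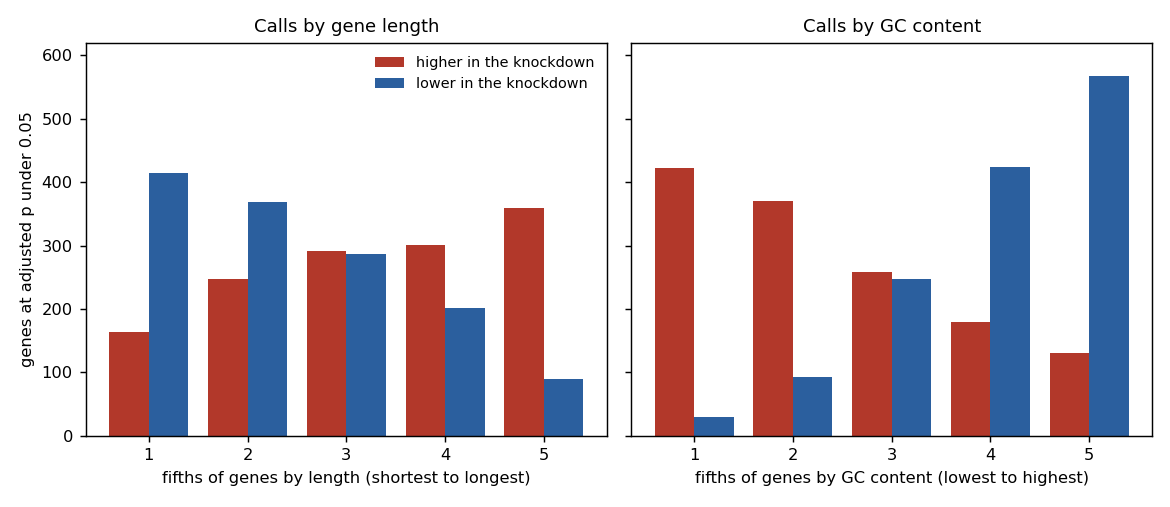
Number of genes called at an adjusted p under 0.05 (y axis) in 5 equal groups of the tested genes by gene length (left) and by GC content (right), higher (red) and lower (blue) in the knockdown. Lower calls fall from 414 in the shortest to 90 in the longest group and rise from 29 in the group of lowest to 567 in that of highest GC content.

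Keratins and cornified-envelope genes of stratified epithelia were higher in part. Of 23 tested, 11 passed as higher (47.8%) and 2 as lower (8.7%), against 12.1% of all genes in each direction, with a median of 0.46. KRT15 was at 19.0, 15.5 and 16.8 FPKM with 5-OH-TMT and 39.9, 37.0 and 36.5 FPKM in the knockdown (1.14, adjusted p 0.00019), and KRT13 at 7.34, 6.77 and 6.03 and 14.9, 18.3 and 13.6 FPKM (1.20). The small proline-rich proteins, which are cross-linked into the cornified envelope, differed most, on few reads. SPRR1A had 0, 1 and 1 reads with 5-OH-TMT and 34, 50 and 47 in the knockdown, a ratio of 64.3 with a 95% exact binomial counting interval of 17.5 to 537. SPRR2A was at 0.321, 0.397 and 0.470 FPKM and 2.46, 3.29 and 2.09 FPKM (2.44), and SPRR2D at 0.161, 0.240 and 0.368 and 2.23, 1.44 and 1.58 FPKM (2.40). The summed level of the 6 stratified or basal markers was 345 to 366 FPKM with 5-OH-TMT and 485 to 580 FPKM in the knockdown, none of them at 0, and their part in other results was not tested. KRT8, called lower, and KRT18, the simple-epithelial pair, lay at 1150 to 1263 and 1219 to 1298 FPKM with 5-OH-TMT and at 887 to 1087 and 1065 to 1149 FPKM in the knockdown. The 2 lower calls, KRT8 and KRT81, numbered 0 without 5-OH-TMT replicate 1 or 2, 1 without replicate 3 or knockdown replicate 1, and 4 without knockdown replicate 3. Higher calls of the list numbered 14 without knockdown replicate 2.

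Matrix and TGF-β genes were mostly called higher. Of 39 tested, 23 (59%) passed as higher and 3 (7.7%) as lower, against 12.1% of all genes in each direction, with a median of 0.43. FN1, fibronectin, was at 216, 209 and 252 FPKM with 5-OH-TMT and 529, 431 and 607 FPKM in the knockdown (1.20, adjusted p 0.00078). PLAU, the urokinase protease, was at 61.5, 57.7 and 80.2 and 203, 196 and 197 FPKM (1.59), and COL17A1, of the hemidesmosome, at 71.5, 71.4 and 78.2 and 129.9, 109.9 and 137 FPKM (0.76). The 3 lower members are matricellular or mesenchymal genes. THBS1, thrombospondin 1, was at 108, 113 and 114 FPKM with 5-OH-TMT and 48.6, 47.5 and 50.3 FPKM in the knockdown (-1.19, SE 0.07, adjusted p 7e-05), and at 126, 169 and 123 FPKM with TNF-α alone. CDH2, N-cadherin, was at 2.02, 2.19 and 2.79 and 0.963, 0.952 and 0.865 FPKM (-1.23), and VIM, vimentin, at 3.14, 3.10 and 2.76 and 1.13, 1.58 and 1.39 FPKM (-1.09). Of the fibroblast markers 1 of 6 had a mean of at least 1 FPKM, COL1A1, which is also on this list; the summed level was 1.151 to 1.463 FPKM with 5-OH-TMT and 2.63 to 3.24 FPKM in the knockdown, with DCN at 0 in each library. Of the endothelial markers CDH5 was at 1.60, 1.51 and 1.85 FPKM with 5-OH-TMT and 3.34, 2.02 and 3.01 FPKM in the knockdown and KDR at 0; the sum of the 4 was 1.77 to 2.01 and 2.21 to 3.62 FPKM, and the 3 neuronal markers were under 0.1 FPKM throughout; these values are given beside the list and their part in it was not tested.

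**Figure D4:**
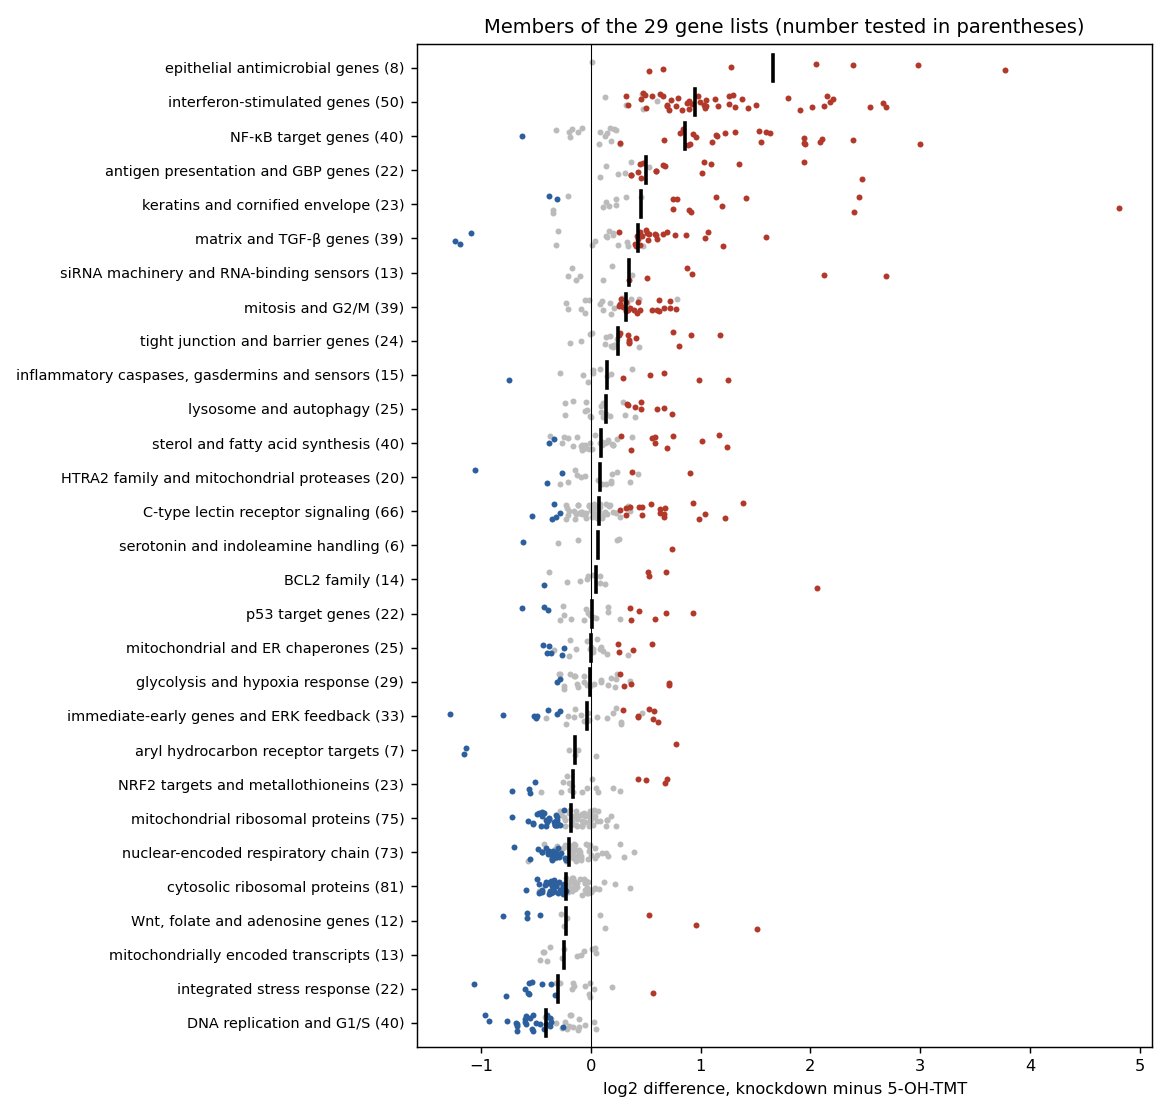
Log2 difference (x axis, knockdown minus 5-OH-TMT) of each tested member of the 29 gene lists (rows, with the number tested), red where called higher, blue where called lower and grey where not called; black bars are medians. Among genes past the filter, the medians run from 1.66 for epithelial antimicrobial genes to -0.40 for DNA replication.

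Sterol and fatty acid genes were called mostly among those of uptake, export and regulation. Of 11 genes of uptake and regulation tested, 6 passed as higher and 0 as lower, against 12.1% of all genes in each direction. Of 19 genes of sterol synthesis 2 passed in each direction (10.5%), and of 10 of fatty acid synthesis 2 passed as higher. The list of 40 had 6 higher calls without 5-OH-TMT replicate 2, and 6 higher and 0 lower with no filter on low values; its 2 lower calls numbered 1 without knockdown replicate 2 and 0 without any other 1 library but knockdown replicate 3. The cholesterol exporters ABCA1 and ABCG1 were at 0.624, 0.590 and 0.722 and 0.919, 0.828 and 0.686 FPKM with 5-OH-TMT and at 1.77, 1.55 and 1.65 and 2.07, 1.56 and 2.24 FPKM in the knockdown (1.24 and 1.17). SCD, which desaturates stearate, was at 105, 101 and 101 FPKM and 151, 156 and 144 FPKM (0.55, adjusted p 0.0013), and at 65.0, 58.4 and 44.2 FPKM with TNF-α alone.

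Immediate-early genes and ERK feedback had 7 higher (21.2%) and 8 lower (24.2%) calls of 33, against 12.1% of all genes in each direction. KLF2, a shear-responsive factor, was lower, at 1.19, 1.25 and 1.28 FPKM against 2.99, 2.94 and 3.57 FPKM (-1.28, adjusted p 0.00046), as was FOSL1, an AP-1 subunit, by 0.80; DUSP6, a phosphatase of ERK, was higher by 0.58. Those counts became 2 and 4 without 5-OH-TMT replicate 1, 3 and 3 without replicate 2, 4 lower without replicate 3, and 3 and 5 without knockdown replicate 1. Among 22 p53 targets 6 were higher (27.3%) and 3 lower (13.6%, near the share of all genes). BTG2, an antiproliferative factor, was at 0.93 and AEN, an apoptotic nuclease, at -0.63. In this list 2 higher calls were left without 5-OH-TMT replicate 1 or 2, 3 without knockdown replicate 1, and 1 lower call without 5-OH-TMT replicate 2. Of 15 inflammatory caspases, gasdermins and sensors 5 were higher (33.3%) and 1 lower (6.7%), beside the same 12.1% of all genes. CASP1, which matures IL-1β, was at 4.21, 3.18 and 3.76 FPKM with 5-OH-TMT and 7.22, 7.36 and 7.60 FPKM in the knockdown (0.98), and its decoy CARD16 differed by 1.25. GSDMA was lower by 0.75. With no filter on low values the immediate-early list had 4 higher and 2 lower calls, the p53 list 3 and 2, and the caspase list 3 and 1. Without 5-OH-TMT replicate 1 or 2 or knockdown replicate 1 this list had 2 higher calls, and without 5-OH-TMT replicate 3 or knockdown replicate 3 it had 3.

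Of 13 genes of the siRNA machinery and RNA-binding sensors, 6 passed as higher (46.2%) and 0 as lower, against 12.1% of all genes in each direction. The called members were OAS1 (2.12), OAS2, OAS3 (0.92), EIF2AK2, the kinase PKR (0.88), ADAR (0.51) and DICER1 (0.35); 4 genes of this list are on the interferon list too. The argonaute AGO2, which carries the guide strand, differed by 0.19 and did not pass. EIF2AK2 was at 5.96, 6.65 and 7.02 FPKM with 5-OH-TMT and 11.2, 13.1 and 12.02 FPKM in the knockdown. Of 25 lysosome and autophagy genes 8 were higher (32%) and 0 lower, with CTSL, a lysosomal protease, at 0.60 and OPTN, an autophagy receptor, at 0.74. Without 5-OH-TMT replicate 2 there were 5 higher calls, and without knockdown replicate 2 there was 1 lower.

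Smaller lists had calls in both directions. WNT4 was at 3.61, 2.98 and 3.75 FPKM with 5-OH-TMT and 11.1, 10.002 and 9.07 FPKM in the knockdown (1.52, adjusted p 0.00015), and FOLR1, a folate receptor, at 2.85, 2.51 and 2.63 and 5.85, 4.88 and 5.11 FPKM (0.96). WNT7B was lower by 0.58 and the adenosine receptor ADORA2B by 0.46, while NT5E, which makes adenosine, was higher by 0.53. The list had 3 higher (25%) and 4 lower (33.3%) calls of 12, against 12.1% of all genes in each direction, and 2 lower without 5-OH-TMT replicate 2 or with no filter. Of 23 NRF2 targets and metallothioneins 4 were higher and 4 lower (17.4% each, near the 12.1% of all genes; 1 and 0 with no filter). Among them FTL, the ferritin light chain, was lower by 0.72, SLC7A11, the cystine transporter, by 0.56, and the reductase AKR1C3 was higher by 0.70. The 2 counts were 1 and 2 without 5-OH-TMT replicate 1, 2 and 2 without replicate 2, 1 and 2 without replicate 3, with 2 higher without knockdown replicate 1 and 7 lower without knockdown replicate 2. For glycolysis and the hypoxia response, 5 of 29 were higher (17.2%) and 2 lower (6.9%), also near the share of all genes, and 2 and 0 with no filter: SLC2A3, a glucose transporter (0.71), and CA9, a carbonic anhydrase (0.71), were higher and PKM was lower by 0.28. PKM lost its call without any 1 5-OH-TMT library or knockdown replicate 1 (adjusted p 0.079 to 0.12), with 0 lower calls then left in the list and 2 to 3 higher; without knockdown replicate 3 there were 6 lower. Of 30 genes of serotonin and indoleamine handling, the chemical family of 5-OH-TMT, 6 passed the level filter; KYNU, of tryptophan breakdown, was higher by 0.74, and the serotonin receptor HTR7 was lower, at 1.10, 1.23 and 0.841 FPKM against 1.75, 1.52 and 1.71 FPKM (-0.62, adjusted p 0.032), a call lost without any 1 library but knockdown replicate 2 (adjusted p 0.063 to 0.11), without which 2 members were higher.

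**Figure D5:**
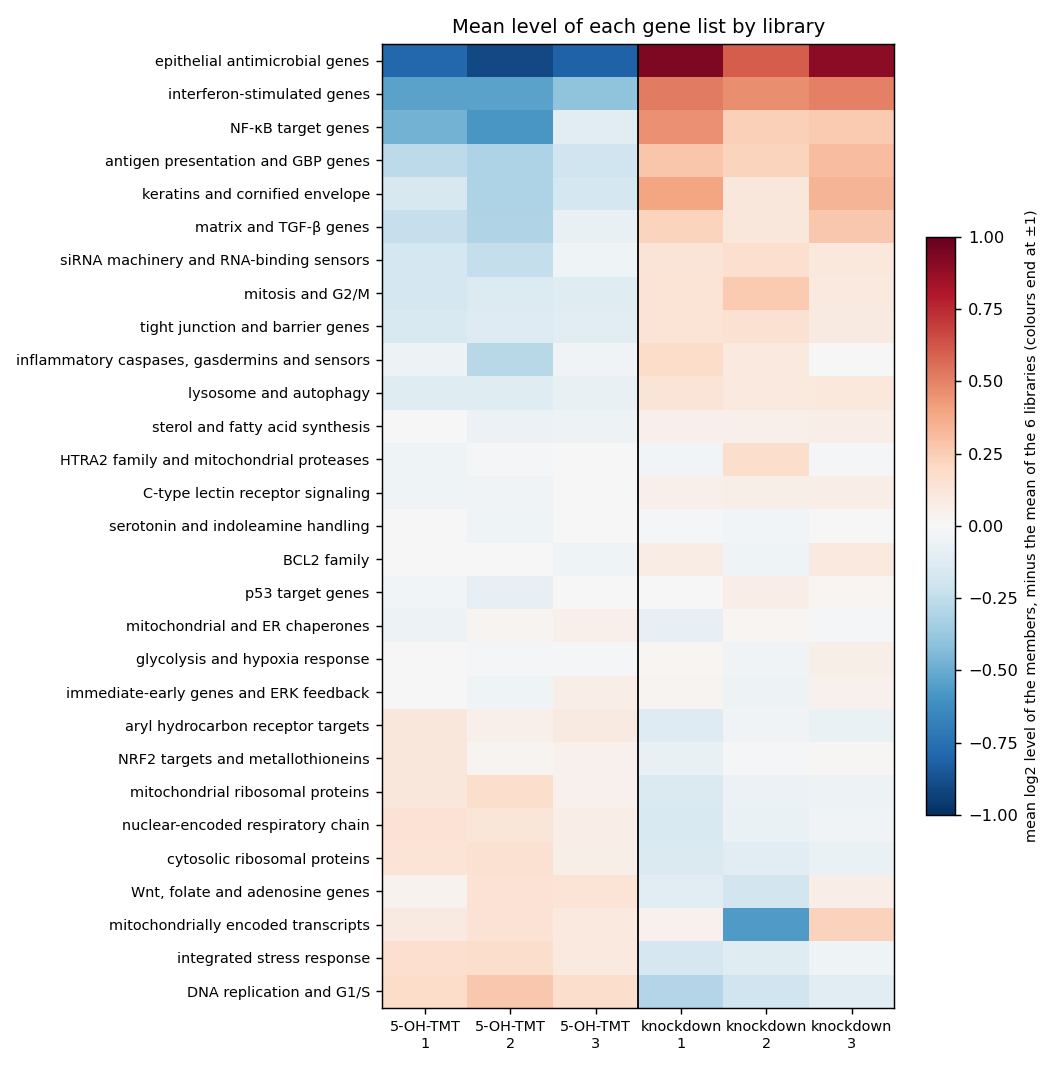
Level of each list (rows) in each of the 6 libraries (columns). Each value is the median, over the tested members, of the log2 level minus the mean of that gene over the 6 libraries. The title and colour scale of the figure word this median as a mean level. Blue is lower and red higher, and colours end at 1 in either direction. The 3 knockdown libraries lie at 0.46 to 0.52 for interferon-stimulated genes and the 3 5-OH-TMT libraries at -0.54 to -0.40, and knockdown replicate 2 stands apart for mitochondrially encoded transcripts at -0.57.

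The 12 largest differences in each direction among genes that passed the adjusted test without overlap were unlike in kind. On the higher side 10 were protein-coding and belonged to groups already described: SPRR1A, S100A8, CXCL10, PI3, OAS2, RSAD2, CMPK2, GBP4, SPRR2A and SPRR2D. The other 2 were MIR186, a microRNA hairpin of 86 bases with 2 reads in the 5-OH-TMT arm and 18 in the other, and AL161669.2, a pseudogene of 42 bases with 3 and 29 reads. Their ratios were 8.84 and 9.50, with 95% exact binomial counting intervals from 2.12 to 78.6 and from 2.94 to 48.7. On the lower side 4 were protein-coding. LCK, a kinase best known from T cells, was at 1.63, 1.74 and 1.71 FPKM with 5-OH-TMT and 0.457, 0.324 and 0.855 FPKM in the knockdown (-1.56, SE 0.28, adjusted p 0.0068). CYSRT1 was at 8.81, 7.01 and 6.99 FPKM and 2.74, 2.97 and 2.81 FPKM (-1.38), SHISA2 at 1.65, 2.10 and 2.498 and 0.397, 0.882 and 0.931 FPKM (-1.44), and C19orf33 at 1.57, 1.82 and 1.67 and 0.898, 0.225 and 0.534 FPKM (-1.60). The remaining 8 were MIR6775, with 29 and 5 reads, the small nucleolar RNAs SNORD104 (-1.43) and SNORA73B (-1.37), the pseudogenes SPCS2P4 (-1.91), STAG3L1 (-1.90) and MEMO1P1 (-1.44), and the noncoding GS1-124K5.4 (-1.37) and antisense BX470102.1 (-1.33). Such short, hosted or duplicated genes share reads with the transcripts around them or with near-identical copies, and the counting could split these, so their differences are uncertain. C19orf33 lost its call without 5-OH-TMT replicate 2, and SNORA73B and STAG3L1 without replicate 1 or 2 (adjusted p 0.06 to 0.066). SPRR1A, S100A8, CXCL10, SPRR2A and SPRR2D were under 1 FPKM in each 5-OH-TMT library and passed the level filter only through the knockdown. GBP4 was under it in 5-OH-TMT replicates 1 and 2. LCK, SHISA2 and C19orf33 were under 1 FPKM in each knockdown library and passed only through the 5-OH-TMT arm.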

How the data were processed

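RNA was measured in NCM460 cells by poly(A)-selected RNA-seq, and the table used holds FPKM per gene in each library, as deposited by the authors. The submitters' processing notes name CASAVA 1.8, HISAT2 2.0.4, HTSeq 0.9.1 and hg38, while the strand setting and the library total behind the FPKM are not given in the sources used here. Coordinates and lengths in the table are those of GENCODE release 29. Values multiplied by gene length gave whole reads for 100% of values in each library (tolerance 0.01 read), and depths and read numbers come from these. Columns of other samples numbered 0.

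Groups came from the labels. Genes with a mean of at least 1 FPKM over the 6 libraries (11235 genes) were tested as log2(FPKM + 0.1) with limma 3.58.1 in R 4.3.3 (lmFit, eBayes with trend, two-sided, Benjamini-Hochberg over all genes tested); fold changes on this scale understate those of low genes. Genes under the filter that are named carry values of the same fit without a filter. Some named genes were under 1 FPKM in 1 arm and passed the filter only through the arm where they were high, among them IFNL1, BCL2A1, ABCA1, ABCG1 and CDH2. Intervals are 95% and cover the spread between libraries, and those of read ratios cover counting error only, since PCR copies are not independent molecules. A floor of 3 reads per library stood for a group at 0. The code was tested on simulated data.

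Named were HTRA2, the 12 largest differences in each direction among called genes without overlap, up to 5 called members per list with the smallest adjusted p and further members of lists with few calls, and genes of the study's themes (CLEC7A, CARD9, SYK, CLDN1, OCLN, TJP1, MUC2, NOD2, XBP1, ATG16L1, BCL2, DEFB1, S100A8 and S100A9). AUP1, LOXL3, the interferons, TNF, XIAP, ISG15, IRF7, CYP1B1, TIPARP, NQO1, TNFAIP3, NFKBIA, VIM, CDH2 and list members outside these rules were chosen after their values were seen. The comparison and the 29 lists were chosen with earlier results of these data known, so lists are given by counts and medians with no test. Promoter windows came from RefSeq GRCh38.p14. The 17 alternatives listed first and 3 chosen after seeing the data (mitochondrial reads left out of the total, and bins of length and of GC content) are given at the end. No test was made against the libraries of medium or of TNF-α alone, whose values are given beside some genes. Some genes are not reported here.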

Additional observations from a re-analysis of the deposited data

How the results depend on the processing

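HTRA2 stayed lower in the knockdown and past the threshold under each of the 20 alternatives. The count of genes higher at an adjusted p under 0.05 was 771 and that of lower genes 520 with no filter on low values, and leaving out 1 library at a time gave 635 to 1547 higher and 416 to 1565 lower. By fold and unadjusted p, 83 were higher and 16 lower with a pseudocount of 1, 439 and 193 with a filter of 0.1 FPKM, 502 and 224 with no filter, and 34 lower after rescaling to a fixed sum of FPKM. A pseudocount of 1 shrinks the fold of low genes and a lower filter tests more of them, by construction; the cause of the other shifts was not tested.

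Of the 2723 called genes, 1040 were still called without 5-OH-TMT replicate 2 and 2707 with a pseudocount of 0.01, the extremes of the alternatives; 1 changed sign after the correction for GC bins and 0 under the others. The replicate numbers did not pair the libraries (correlations of deviations 0.133, 0.123 and -0.101), and with the replicate block 1394 genes were higher and 1309 lower at an adjusted p under 0.05.

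Genes near 0 changed sign with no call. TJP1 was at -0.0067 with the median of ratios, -0.0994 with length bins, -0.0603 with GC bins, and -0.0346 to 0.0801 without 1 library. XBP1 was at 0.0181 after quantile normalization, 0.0518 with the fixed sum and 0.0163 with length bins. ATG16L1 was at 0.0751 with the fixed sum, 0.0209 with voom, 0.0182 without mitochondrial reads, 0.0063 with GC bins, and -0.0303 to 0.026 without 1 library; BCL2 ranged from -0.088 to 0.181 without 1 library. CARD9, SYK, MUC2, BCL2 and IFNB1, each under 1 FPKM, did not pass the test.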
